A study of Homo sapiens with 8 samples.

Results

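Integrins and laminins form a receptor and ligand system through which cells hold on to the extracellular matrix. The genes described here are the protein-coding genes whose GENCODE symbol names an integrin alpha chain, an integrin beta chain or a laminin chain, which gave 38 members among the 60668 rows of the count files, 19934 of them protein-coding. They comprise 26 integrin genes, with 18 alpha and 8 beta chains, and 12 laminin genes. RNA-Seq libraries of polyA+ RNA were compared between 4 untreated and 4 DOX-treated replicates of D283-OMO cells. D283 MED is a MYC-driven medulloblastoma cell line, and D283-OMO cells are that line transduced with a lentivirus that carries a FLAG-tagged OMOMYC transgene under a doxycycline (DOX)-inducible promoter. OMOMYC is a dominant-negative mini-protein derived from MYC. The DOX-treated cells received DOX for 72 h.

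Both groups carry the transgene and went through the same hygromycin selection, so the groups differ in DOX and in the OMOMYC that it induces. Wild-type cells given DOX were not analysed here, and DOX and OMOMYC cannot be told apart in these libraries. The culture holds floating and adherent cells, and the share of each in the RNA is not given in the sources used here. In bulk libraries, fewer cells that express a gene and less RNA of it per cell cannot be told apart either. Total expected counts per library ran from 38390696 to 54020506. Mitochondrial genes took 4.73% to 5.13% of the counts in untreated and 5.70% to 5.95% in DOX-treated libraries. Untreated replicate 3 correlated least with its own group, with a mean Pearson r of 0.990 across genes. MYC itself was at 939 ± 75.6 CPM (counts scaled to library size; SD, n = 4) in untreated and 1123 ± 56.8 CPM in DOX-treated cells, values to which transgene reads may add. All 7 markers of Group 3 medulloblastoma (OTX2, NRL, CRX, NPR3, IMPG2, GABRA5 and EYA2) lay above 1 CPM in every library, while their summed level was 2273 to 2473 CPM in untreated and 719 to 738 CPM in DOX-treated libraries.

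An integrin is a pair of transmembrane chains, an alpha and a beta chain, that binds matrix proteins outside the cell and connects to actin inside it through talin, kindlin and other linkers. The alpha chain largely sets which ligand is bound, so the family is sorted into receptors for collagen, for laminin, for proteins with the tripeptide RGD, and into those of leukocytes. Laminins are secreted cross-shaped trimers of an alpha, a beta and a gamma chain. They assemble into a sheet on the cell surface, the base on which basement membranes are built. An example is the basement membrane beneath the pia that covers the developing cerebellum.

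Since MYC with its partner MAX is known to bind the hexamer CACGTG, called the E-box, the 250 bases before each RefSeq gene start were searched for it. The motif reads the same on both strands, so a single search covers them. RefSeq windows on GRCh38.p14 were at hand for 26 of the 38 members, 33 windows in all. Members without a window, and so not searched, included ITGA3, ITGAX, ITGB3, ITGA9, LAMA1 and ITGB4. A single window, that of the laminin receptor chain ITGA6, held the hexamer, with the motif 101 bases before the start, against 2228 of all 35116 windows, or 6.35%. The ITGA6 window lies at chr2:172427086-172427335 on the plus strand. It is shown with the E-box in capitals beside that of LAMC1, the laminin chain whose RNA rose most, at chr1:183023170-183023419 on the plus strand, in which these letters do not occur.

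ITGA6: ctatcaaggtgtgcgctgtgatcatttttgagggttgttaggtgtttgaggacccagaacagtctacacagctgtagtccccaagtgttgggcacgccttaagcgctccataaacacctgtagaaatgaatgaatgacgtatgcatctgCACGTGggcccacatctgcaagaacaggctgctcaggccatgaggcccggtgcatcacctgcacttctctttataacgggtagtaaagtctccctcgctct
LAMC1: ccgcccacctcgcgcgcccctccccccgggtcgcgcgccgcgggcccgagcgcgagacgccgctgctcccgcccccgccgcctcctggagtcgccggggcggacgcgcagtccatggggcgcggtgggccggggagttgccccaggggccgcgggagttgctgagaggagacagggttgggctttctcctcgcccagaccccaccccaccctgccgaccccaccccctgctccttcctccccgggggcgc

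The ITGA6 window shown held 8 CpG dinucleotides and 50.8% G and C, and that of LAMC1 held 32 and 79.6%. A second RefSeq start of ITGA6 has its window directly after the first, at chr2:172427336-172427585, with no match to the hexamer, 30 CpG dinucleotides and 71.6% G and C. A match to a hexamer describes the sequence only, and binding at these windows was not analysed here.

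With DOX, RNA of 10 of the 15 integrin genes tested was higher and that of 3 was lower. Those 10 include ITGAX, ITGB3 and ITGA10, which could be tested only because of their level with DOX. The laminin chains moved in both directions, with 2 higher and 3 lower of 7. Of the 38 members, 22 exceeded 1 CPM in 4 or more of the 8 libraries and were tested, 15 integrin and 7 laminin genes. At an adjusted p below 0.05 (edgeR's quasi-likelihood test, Benjamini-Hochberg over 15222 genes), 12 of these were higher with DOX and 6 were lower, where 38.5% of all genes tested were called higher and 38.1% lower. At an FDR below 0.001 with an absolute log2 fold change (log2FC) above 2, 4 members rose, ITGA1, ITGA3, ITGAX and ITGB3, against 4.38% of all genes. None fell at those thresholds by edgeR or by DESeq2, against 2.75% of all genes, and 6 were lower at an unadjusted p below 0.05. ITGAX and ITGB3 exceeded 1 CPM in no untreated library and ITGA10 in 1 of them. They passed the filter on low counts through the DOX-treated libraries, so the filter itself took them in for their level there. When 5 or more libraries had to exceed 1 CPM, ITGAX and ITGB3 were not tested, while ITGA10 still was. Of the 20 members tested then, 10 were higher and 6 lower at an adjusted p below 0.05. Under that filter 2 members, ITGA1 and ITGA3, rose past the stricter thresholds. The untreated and DOX-treated libraries did not overlap for 18 of the 22, where 71.7% of all genes tested show no overlap. The median log2FC was 0.44 over the members tested and 0.01 over all genes tested. By kind, it was 1.10 over the 15 integrin genes and -0.09 over the 7 laminin genes. Both the 0.44 and the 1.10 include ITGAX, ITGB3 and ITGA10, and 1.10 is the value of ITGA10 itself. Medians without these genes were not computed.

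**Figure D1:**
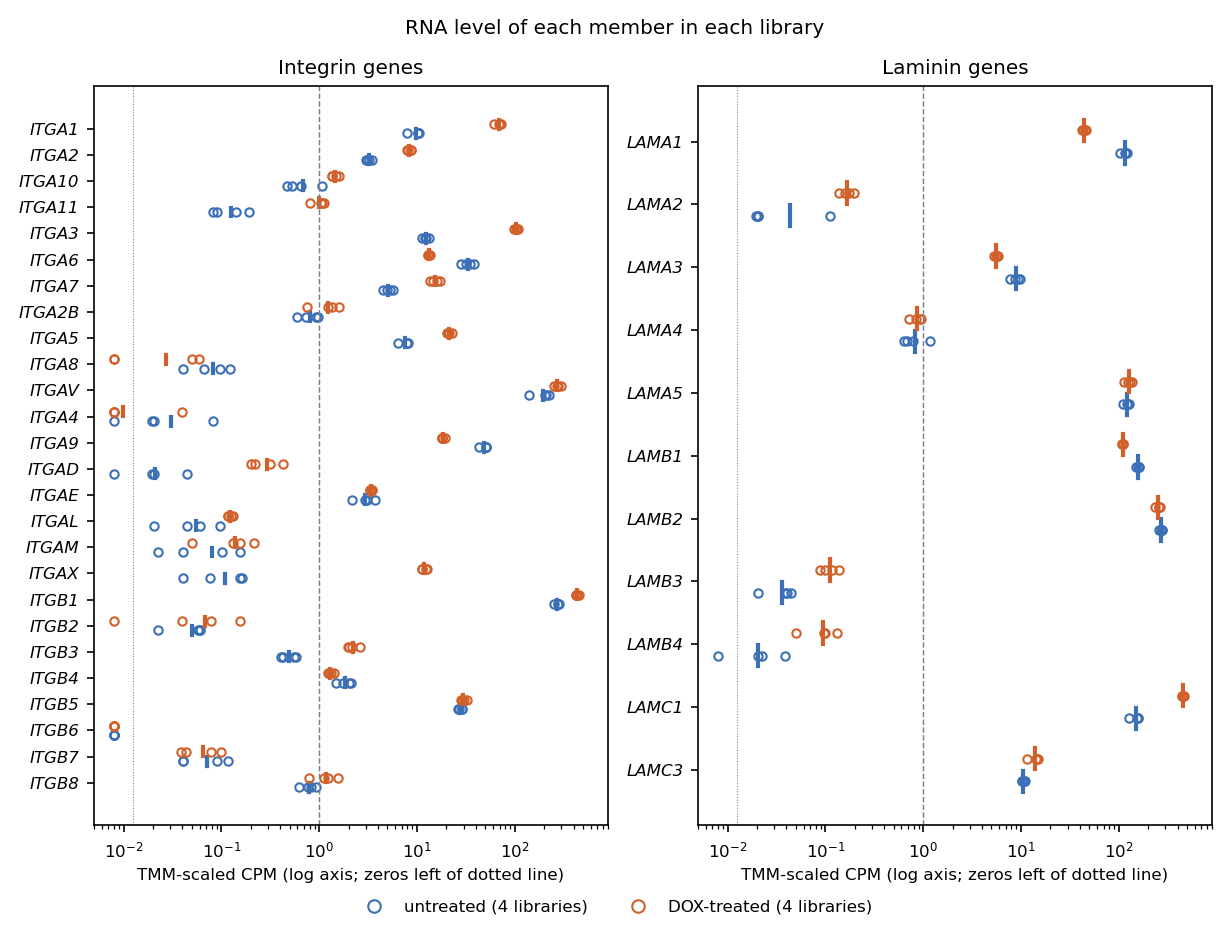
CPM of the 26 integrin genes and 11 of the laminin genes in each of the 4 untreated and 4 DOX-treated libraries on a log axis, with short bars at the group means and the dashed line at 1 CPM. ITGA3, ITGA1 and ITGAX lie well to the right with DOX, ITGA6, ITGA9 and LAMA1 lie to the left, and the genes left of the dashed line in most libraries were too low to test.

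Among the collagen receptor chains, all 3 that were tested rose. ITGA10 had exceeded 1 CPM in only 1 untreated library, so the filter took it in for its level with DOX. ITGA1, the alpha chain of the main collagen IV receptor, is a plus-strand gene of chromosome 5 (GRCh38, 52787896 to 52959210). It stood at 10.2, 10.6, 7.91 and 10.4 CPM in the untreated libraries and at 71.2, 72.5, 69.4 and 61.9 CPM in the DOX-treated libraries. The lowest treated library lay far above the highest untreated one, and the log2FC was 2.81 ± 0.09 (SE, adjusted p = 1.2e-10), or 7.03-fold. Its exons share 475 bases with PELO on the same strand, which RSEM has to divide, and PELO had a log2FC of 0.61. ITGA2, whose product binds collagen I, starts 30115 bases beyond the end of ITGA1. It rose from between 3.01 and 3.49 CPM to between 7.94 and 8.73 CPM, a log2FC of 1.38 ± 0.08 (adjusted p = 1.7e-08). ITGA10, a chain known from cartilage, rose from 0.683 ± 0.273 to 1.45 ± 0.117 CPM (mean ± SD of 4 libraries, as in all such pairs of values below), and its log2FC was 1.10 ± 0.22 (adjusted p = 0.00067). ITGA11, the fourth collagen receptor chain, was not tested. It had between 4 and 10 counts in the untreated libraries and between 37 and 54 in the DOX-treated ones, without overlap.

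The laminin receptor chains exchanged their order, as ITGA3 rose and ITGA6 fell. ITGA3 pairs with ITGB1 into a receptor for laminins with the LAMA3 or LAMA5 chain, and is a plus-strand gene of chromosome 17 (50055968 to 50090481). It was measured at 12.5, 11.3, 12.0 and 13.2 CPM in untreated and at 107, 98.4, 104 and 107 CPM in DOX-treated libraries. The libraries of each group lay close together and far from the other group, with a log2FC of 3.09 ± 0.06 (adjusted p = 1.4e-12), or 8.50-fold.

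ITGA6, the chain that also pairs with ITGB4 in hemidesmosomes, is a plus-strand gene of chromosome 2 (172427354 to 172506282), just behind the E-box window shown above. Its values, given in full after they had been seen, were 38.3, 31.9, 28.1 and 34.8 CPM in untreated and 13.6, 13.0, 13.2 and 12.9 CPM in DOX-treated libraries. Every treated library was below every untreated one, and the log2FC was -1.34 ± 0.08 (adjusted p = 4.3e-08). ITGA7, the laminin receptor chain typical of muscle, rose from 5.12 ± 0.491 to 15.4 ± 1.61 CPM, a log2FC of 1.59 ± 0.09 (adjusted p = 2.3e-08). Set per kilobase of exon, ITGA3 was at 1.25 ± 0.0783 CPM per kb and ITGA6 at 5.09 ± 0.663 CPM per kb without DOX. With DOX, these levels were 10.6 ± 0.411 and 2.01 ± 0.0457 CPM per kb. The ratio of ITGA3 to ITGA6 per length was 0.218 to 0.285 in untreated and 5.05 to 5.53 in DOX-treated libraries. This ratio, like those of laminin chains further on, was chosen after the values had been seen and is given without a test.

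Both RGD receptor chains that could be tested rose. ITGAV, which pairs with ITGB1, ITGB3, ITGB5, ITGB6 or ITGB8 and binds vitronectin and latent TGF-beta, was the most abundant alpha chain per length in each group. It is a plus-strand gene of chromosome 2 (186590065 to 186680901) and stood at 227, 204, 139.8 and 209.7 CPM in untreated and at 279, 294, 270.1 and 251 CPM in DOX-treated libraries. Untreated replicate 3 was well below the other untreated libraries, and the groups did not overlap. The log2FC was 0.49 ± 0.12 (adjusted p = 0.0032), and with single libraries left out and under the other alternatives it ran from 0.34 to 0.61. Per kilobase of exon, ITGAV gave 59.7% ± 3.59 of the summed alpha chains without DOX and 54.6% ± 1.82 with it, and these shares overlapped. ITGA5, the fibronectin receptor chain, rose from 7.55 ± 0.804 to 21.3 ± 1.22 CPM, a log2FC of 1.50 ± 0.08 (adjusted p = 9.6e-09). ITGA2B, the fibrinogen receptor chain of platelets, was not tested and ran from 0.600 to 0.964 CPM in untreated and from 0.749 to 1.58 CPM in DOX-treated libraries, with overlap. ITGA8 had at most 6 counts in any library.

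Of the chains of the remaining classes, ITGA9 fell and ITGAX rose. ITGA9, a receptor chain for tenascin-C and VCAM1, is a plus-strand gene of chromosome 3 (37452115 to 37823514). It was at 50.6, 50.6, 43.4 and 50.8 CPM without DOX and at 19.2, 18.0, 18.2 and 17.9 CPM with DOX. The groups were well apart, with a log2FC of -1.41 ± 0.06 (adjusted p = 1.3e-09), the lowest among the members tested. ITGA9-AS1, which shares 6.46% of the ITGA9 exon bases on the opposite strand, had 22 to 68 counts. ITGA4, the related chain of lymphocytes, had at most 4 counts in any library.

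ITGAX encodes CD11c, the alpha chain that dendritic cells and macrophages pair with ITGB2, and is a plus-strand gene of chromosome 16 (31355134 to 31382997). It had 8, 4, 2 and 7 counts in the untreated libraries and 574, 500, 654 and 507 counts in the DOX-treated libraries. As CPM these were 0.163, 0.0774, 0.0407 and 0.157 against 11.3, 12.5, 12.8 and 11.2. The gene was near the detection floor of 3 counts (0.0581 to 0.0748 CPM per library) in each untreated library. By its mean CPM with DOX it ranked 9724 of the 15222 genes tested. The log2FC was 6.75 ± 0.19 (adjusted p = 3.5e-11), or 108-fold, the largest among the members tested, and rests on those few untreated counts. ITGB2, the only beta chain that CD11c is known to pair with, stayed at 1 to 3 counts without DOX and 0 to 7 counts with it. The neighbours of ITGAX on chromosome 16 code for leukocyte chains too. ITGAD, which starts 10314 bases further, had 0 to 2 counts in untreated and 8 to 22 in DOX-treated libraries, at least 4.71-fold higher against a floor of 3 counts in each untreated library. ITGAM, which ends 22241 bases before ITGAX, had 1 to 8 and 2 to 11 counts, with overlap. ITGAL, the alpha chain of LFA-1, had 1 to 5 and 5 to 6 counts. ITGAE, the chain of the E-cadherin receptor of intraepithelial lymphocytes, was at 2.98 ± 0.622 and 3.40 ± 0.0818 CPM with a log2FC of 0.19 ± 0.14 (adjusted p = 0.23), and 6.41% of its exon bases lie opposite HASPIN, whose log2FC was -1.20.

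The 8 leukocyte markers summed to 0.403 to 0.610 CPM in untreated and 2.88 to 3.66 CPM in DOX-treated libraries. Of these, CD53 had 0 counts without DOX and 2.37 ± 0.229 CPM with it. CD68 was at 0.144 and 0.427 CPM and CD79A at 0.122 and 0.244 CPM, both without overlap. CD14 went the other way, from 0.143 to 0.0474 CPM, also without overlap. LST1 at 0.0254 and 0.117 CPM and TYROBP at 0.0305 and 0.0104 CPM overlapped between the groups. PTPRC, which codes for the pan-leukocyte antigen CD45, was at 0.0662 ± 0.0355 and 0.0321 ± 0.0273 CPM, and CD3E at 0 and 0.00489 CPM. The 5 endothelial markers summed to 0.183 to 0.538 and 4.41 to 5.05 CPM, with KDR at 0.348 and 2.74 CPM, CDH5 at 0 and 1.85 CPM and PECAM1 at 0.0311 and 0.0167 CPM. The 4 platelet and megakaryocyte markers summed to 1.20 to 1.95 and 2.55 to 3.79 CPM, all of it from GP1BA, since PF4, PPBP and GP9 had 0 counts in all 8 libraries. Their part in the ITGAX result was not tested.

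The beta chains were led by ITGB1, the partner of 12 of the 24 integrin pairs considered below. ITGB1 is a minus-strand gene of chromosome 10 (32900319 to 33005792) and was at 277, 283, 250.2 and 276 CPM in untreated and 429, 449.9, 429 and 426 CPM in DOX-treated libraries. The groups did not overlap, and the log2FC of 0.67 ± 0.05 (adjusted p = 1.4e-07) was a 1.60-fold rise of a gene that was already among the most abundant members. Per kilobase of exon it made up 90.4% ± 0.735 of all beta chains without DOX and 93.0% ± 0.488 with it.

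ITGB3, a partner of ITGAV and of platelet ITGA2B, was at 0.408, 0.581, 0.549 and 0.426 CPM in untreated and 2.64, 2.19, 2.03 and 1.98 CPM in DOX-treated libraries. It was low in both groups without overlap, with a log2FC of 2.16 ± 0.16 (adjusted p = 1.8e-07). It is a plus-strand gene of chromosome 17 (47253846 to 47311816) and shares 51.6% of its exon bases with AC068234.1 on the same strand, to which RSEM gave at most 9 counts in any library. ITGB4, the hemidesmosomal partner of ITGA6, fell from 1.84 ± 0.273 to 1.31 ± 0.0791 CPM, a log2FC of -0.49 ± 0.13 (adjusted p = 0.0055). ITGB5, an ITGAV partner in vitronectin receptors, was at 27.8 ± 1.09 and 29.9 ± 1.75 CPM with a log2FC of 0.11 ± 0.05 (adjusted p = 0.093). ITGB8 ran from 0.630 to 0.939 CPM and from 0.793 to 1.56 CPM, with overlap and without a test. ITGB7 had 2 to 6 counts in every library, and 42.1% of its exon bases lie opposite ZNF740, which had 2982 to 4310 counts. ITGB6 had 0 counts in all 8 libraries, which allows up to 0.0581 to 0.0748 CPM per library.

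**Figure D2:**
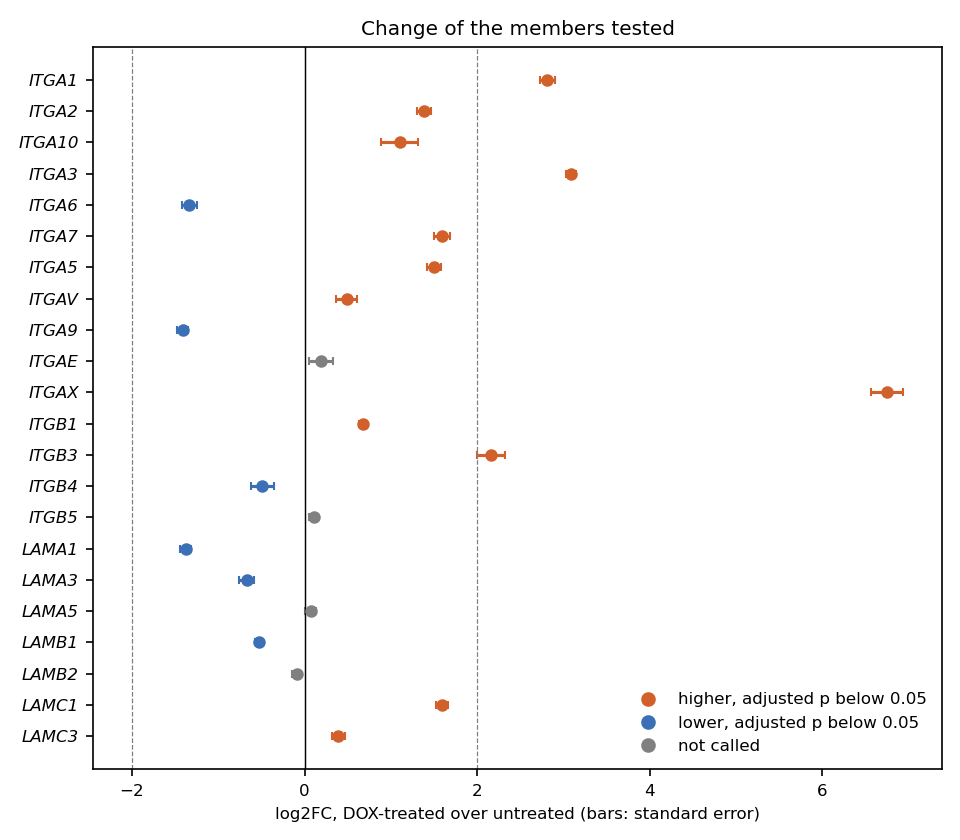
log2FC of DOX-treated over untreated cells for the 22 members tested, with bars of 1 standard error and dashed lines at the study's fold threshold of 2 in each direction on the log2 scale. ITGAX, ITGA3, ITGA1 and ITGB3 lie beyond the line on the right, and ITGA9, LAMA1 and ITGA6 lie lowest, between -1.41 and -1.34.

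Among the laminins, the gamma chain rose while alpha and beta chains were lower or were not called. LAMC1, the gamma chain of most laminins, is a plus-strand gene of chromosome 1 (183023460 to 183145592). It was at 158, 152, 127 and 159 CPM in untreated and at 462, 449.9, 445 and 441 CPM in DOX-treated libraries. The treated libraries lay close together and all above the untreated ones, with a log2FC of 1.59 ± 0.07 (adjusted p = 1.5e-09), or 3.01-fold. By its mean CPM it ranked 1197 of the 15222 genes tested without DOX and 242 with it. LAMC3, the gamma chain known from the cortical surface and the retina, rose from 10.6 ± 0.329 to 13.8 ± 1.50 CPM, a log2FC of 0.39 ± 0.08 (adjusted p = 0.00072).

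LAMA1, the alpha chain of the laminin of the early embryo and of the pial surface, is a minus-strand gene of chromosome 18 (6941744 to 7117814). Its values, also given in full after they had been seen, were 123, 117, 102 and 119 CPM without DOX and 46.5, 43.1, 45.7 and 42.1 CPM with DOX. No treated library reached the lowest untreated one, and the log2FC was -1.37 ± 0.06 (adjusted p = 2.4e-09). LAMA3, the alpha chain of epithelial laminins, fell from 8.90 ± 0.872 to 5.59 ± 0.196 CPM, a log2FC of -0.67 ± 0.08 (adjusted p = 1.5e-05).

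LAMA5, the widespread alpha chain of adult basement membranes, is a minus-strand gene of chromosome 20 (62307955 to 62367312). It was at 127, 121, 111 and 124 CPM in untreated and at 136, 115, 126 and 131 CPM in DOX-treated libraries. These groups overlapped, and the log2FC was 0.07 ± 0.06 (adjusted p = 0.31). Per kilobase of exon, LAMA5 made up 51.6% ± 0.606 of the laminin alpha chains without DOX and 73.1% ± 1.32 with it, while LAMA1 made up 44.2% ± 0.514 and 23.1% ± 1.18. Neither share overlapped between the groups. LAMA4, of vessel walls, ran from 0.633 to 1.18 CPM and from 0.710 to 0.947 CPM without a test. LAMA2, the alpha chain of muscle and peripheral nerve, had 1 to 5 and 7 to 9 counts.

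Of the beta chains, LAMB2, typical of synapses and glomeruli, was the more abundant per length. It is a minus-strand gene of chromosome 3 (49121114 to 49133118) and stood at 261, 269, 275 and 278 CPM without DOX and 259, 235, 259.8 and 263 CPM with DOX. The groups overlapped, with a log2FC of -0.09 ± 0.05 (adjusted p = 0.11). LAMB1, the beta chain of embryonic laminin, fell from 158 ± 4.36 to 109 ± 1.99 CPM, a log2FC of -0.53 ± 0.04 (adjusted p = 2.6e-07). Its share of the beta chains per length was 33.0% ± 1.10 without DOX and 26.6% ± 0.739 with it. LAMB3 and LAMB4 had at most 7 counts in any library.

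Summed per kilobase of exon, the laminin gamma chains were at 19.1 ± 1.78 CPM per kb without DOX and 55.3 ± 1.09 CPM per kb with it. The beta chains were at 58.9 ± 0.954 and 50.5 ± 2.13, and the alpha chains at 16.4 ± 1.11 and 12.1 ± 0.714 CPM per kb. A laminin holds a single chain of each kind, but these sums use merged exon lengths, so a ratio near 1 does not show balanced chains. The gamma sum of 19.1 stood beside an alpha sum of 16.4 without DOX, and that of 55.3 beside 12.1 with it. RNA of LAMC1 per RNA of all beta chains, both per length, was 0.257 to 0.326 in untreated and 1.01 to 1.13 in DOX-treated libraries, without overlap. The integrin alpha chains summed to 39.5 ± 5.72 and 61.0 ± 2.17 CPM per kb and the integrin beta chains to 50.0 ± 2.33 and 77.6 ± 1.71 CPM per kb.

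**Figure D3:**
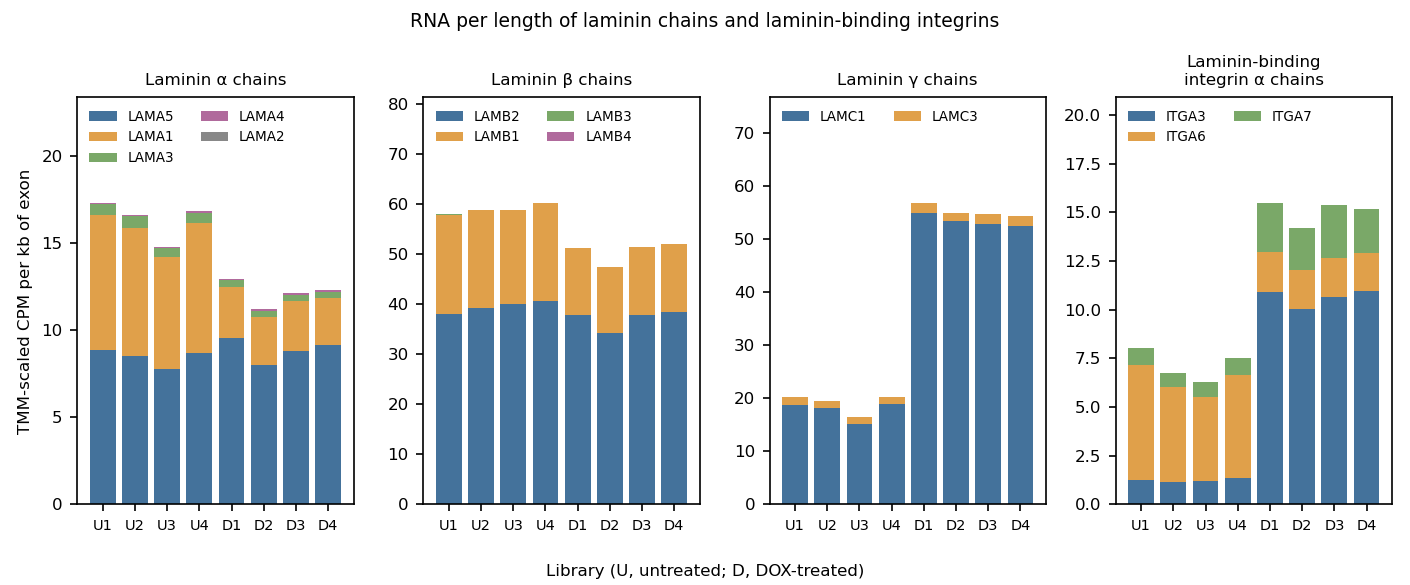
CPM per kilobase of exon of the laminin alpha, beta and gamma chains and of the laminin-binding integrin alpha chains, stacked by gene, in the 4 untreated (U) and 4 DOX-treated (D) libraries. The gamma bars stand between 16.5 and 20.3 without DOX and between 54.4 and 56.9 with it, the LAMA1 segment is shorter with DOX, and the tallest laminin-binding integrin segment is ITGA6 without DOX and ITGA3 with it.

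Which receptors and laminins these chains could form was counted from a list of 24 known integrin pairs and 14 known laminin trimers, with all chains required to exceed 1 CPM in every library of a group. By RNA alone, 10 of the 24 pairs met this without DOX and 12 with DOX, the added pairs being ITGA10 with ITGB1 and ITGAV with ITGB3. The pairs in both groups joined ITGB1 to ITGA1, ITGA2, ITGA3, ITGA5, ITGA6, ITGA7, ITGA9 or ITGAV, ITGB5 to ITGAV and ITGB4 to ITGA6. Of the trimers, 7 met it in either group. They joined LAMA1, LAMA3 or LAMA5 to LAMB1 or LAMB2 and LAMC1, and LAMA5 to LAMB2 and LAMC3. No pair with ITGB2, including that of ITGAX, met it in either group. With a minimum of 2 CPM, 9 pairs qualified in each group, and with 0.5 CPM, 11 did without DOX and 15 with DOX. The gain in pairs with DOX therefore depended on the minimum chosen. Such counts say nothing about the assembly of the proteins, which was not measured.

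Partner genes of the system were taken from 4 lists, 115 genes of which 87 could be tested. They split into 31 higher, 37 lower and 19 not called, with a median log2FC of -0.03. These counts and those of the single lists below stand beside the 38.5% higher and 38.1% lower among all genes tested, and no list was tested against the other genes. When libraries were scaled by their total alone, which moved the median of all genes from 0.01 to 0.14, 39 were higher and 31 lower, so which direction holds more of these genes depends on the scaling. Under that scaling ITGAE, ITGB5 and LAMA5 were called higher as well, and 15 members were higher and 6 lower.

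Basement membrane partners of laminin had 10 genes higher and 5 lower of 16 tested, with a median log2FC of 0.88. HSPG2, which codes for the heparan sulfate proteoglycan perlecan, rose from 129.6 ± 14.3 to 952 ± 73.7 CPM, a log2FC of 2.88 ± 0.09 (adjusted p = 7.4e-11). SPARC, a collagen chaperone, and COL4A2, a chain of the ubiquitous collagen IV, had a log2FC of 2.01 and 1.75. SMOC1, a secreted calcium-binding matrix protein, fell from 189 ± 12.8 to 23.8 ± 1.48 CPM, a log2FC of -2.99 ± 0.07 (adjusted p = 5.9e-12). COL4A3 and COL4A4, chains of the collagen IV of glomeruli and lung, had a log2FC of -2.32 and -2.24.

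Other laminin receptors and the enzymes that glycosylate dystroglycan had 9 higher and 11 lower of 23, with a median of -0.15. BCAM, the Lutheran antigen that binds LAMA5, rose from 29.4 ± 2.14 to 153 ± 12.2 CPM (log2FC of 2.39 ± 0.07, adjusted p = 6.1e-11). SSPN, a membrane protein of the dystrophin complex, and POMGNT1, which extends the O-mannose glycan, had a log2FC of 2.23 and 1.73. SGCD, a sarcoglycan, fell from 10.2 ± 1.75 to 1.96 ± 0.483 CPM (log2FC of -2.38 ± 0.17, adjusted p = 1.5e-07). LARGE2, which builds the laminin-binding glycan, and DMD, which codes for dystrophin, had a log2FC of -2.21 and -1.82.

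Other integrin ligands had 6 higher and 8 lower of 16, with a median of -0.20. TNC, which codes for the ITGA9 ligand tenascin-C, rose from 1.56 ± 0.406 to 15.4 ± 1.29 CPM (log2FC of 3.30 ± 0.14, adjusted p = 1.6e-09). FBN2, a microfibril protein, and LTBP1, which holds latent TGF-beta, had a log2FC of 2.88 and 1.52. VTN, which codes for the RGD protein vitronectin, fell from 7.53 ± 0.645 to 0.854 ± 0.235 CPM (log2FC of -3.14 ± 0.16, adjusted p = 5.1e-09). THBS1, which codes for thrombospondin, and VWF, von Willebrand factor, had a log2FC of -2.66 and -1.39. Of the adhesion linkers and signalling genes, 6 were higher and 13 lower of 32, with a median of -0.11. LIMS2, an adaptor that joins ILK to other linkers, was the only gene of this list past the study's thresholds, at 13.2 ± 1.41 and 2.15 ± 0.447 CPM (log2FC of -2.61 ± 0.13, adjusted p = 5.6e-09). ITGB3BP, named for the ITGB3 tail and also a centromere protein, and ACTN1, an actin crosslinker, had a log2FC of -1.29 and -0.76. The rises with the largest log2FC were those of FERMT2, a kindlin, at 0.66, TLN2, a talin, at 0.57, and TNS2, a tensin, at 0.44.

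**Figure D4:**
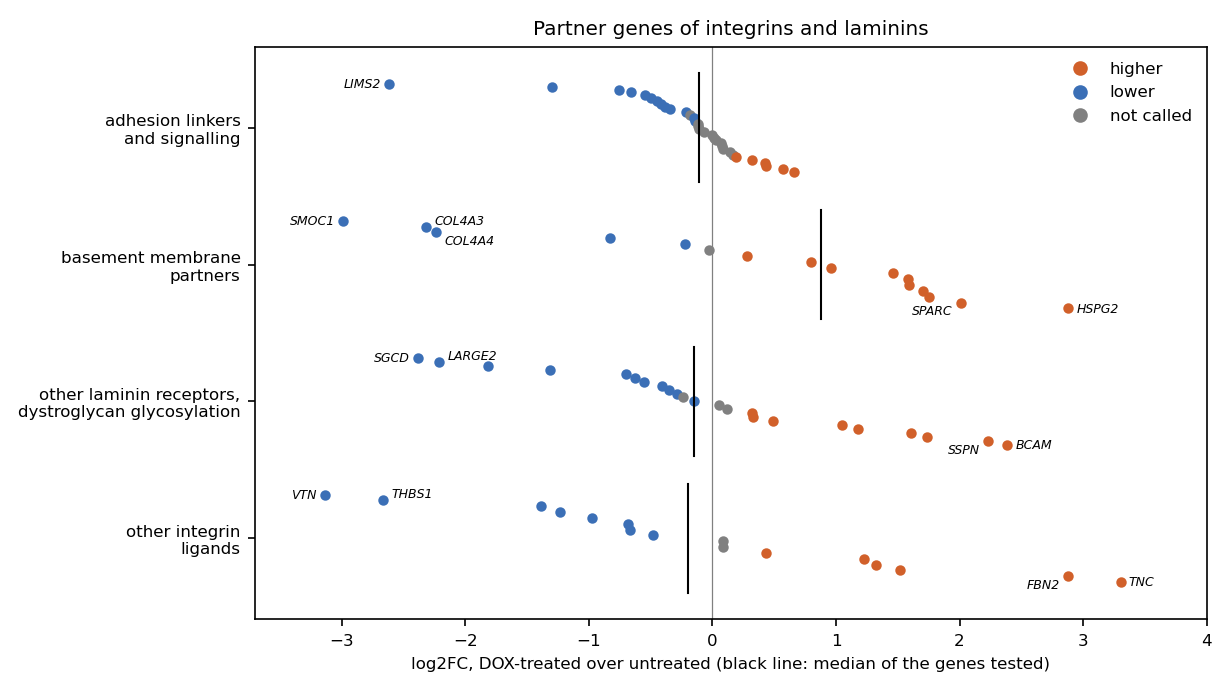
log2FC of DOX-treated over untreated cells for the 87 partner genes tested, by list, coloured by the call at an adjusted p below 0.05, with a black line at each list's median. The adhesion linkers run from -2.61 for LIMS2 to 0.66 for FERMT2, and the basement membrane partners from -2.99 for SMOC1 to 2.88 for HSPG2.

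Markers of tissue types that express these chains moved in both directions. The 6 fibroblast markers summed to 35.1 to 37.6 CPM in untreated and 55.7 to 69.1 CPM in DOX-treated libraries. PDGFRB was at 13.5 and 40.4 CPM, COL1A1 at 22.1 and 23.4 CPM and COL3A1 at 0.00510 and 0.335 CPM. DCN was at 0.601 and 0.0117 CPM, COL1A2 at 0.223 and 0.0110 CPM and LUM at 0.0965 and 0.0173 CPM. Only COL1A1 and LUM overlapped between the groups. The 6 epithelial markers summed to 13.8 to 17.5 and 3.96 to 4.71 CPM, nearly all of it from KRT8. CDH1 was at 0 and 0.569 CPM and KRT5 at 0.113 and 0.00493 CPM, both without overlap. KRT18 at 0.0509 and 0.00986 CPM, EPCAM at 0.0973 and 0.124 CPM and KRT14 at 0.00508 and 0.00489 CPM overlapped. The 4 astrocyte markers summed to 47.8 to 51.8 and 15.5 to 18.2 CPM, nearly all from SLC1A3. GFAP was at 0.293 and 0.0744 CPM, with overlap. AQP4 at 0.0413 and 0.155 CPM and ALDH1L1 at 0.0150 and 0.0988 CPM were higher with DOX, without overlap. Their part in the changes of the integrin and laminin genes was not tested.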

How the data were processed

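PolyA+ RNA of 4 untreated and 4 DOX-treated D283-OMO cultures, which the study's methods describe as independent biological replicates, was sequenced from a stranded kit as paired reads. The authors used Trim Galore for trimming, STAR for alignment to GRCh38 with GENCODE genes, and RSEM for quantification. The authors deposited RSEM expected counts per gene, not normalized, in which reads matching several genes are already divided. The strand setting of the counting is not given in the sources used here. At 15 of the 38 members, counts were not whole in some library, and 22 members share exon bases with another gene.

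Expected counts were rounded and tested in edgeR 4.0.16 (R 4.3.3; TMM scaling, quasi-likelihood test, no covariates) over the 15222 genes that exceeded 1 CPM in 4 or more of the 8 libraries, with Benjamini-Hochberg adjustment. Total counts per library ran from 38390696 to 54020506, and the filter used CPM of these totals. The CPM given in the text use the counts in the genes tested, 38287424 to 53901408 per library, after TMM scaling. Levels per kb use merged exons of GENCODE 29. A gene at 3 counts or fewer in every library of a group counts as at the floor. Floors cover counting error only. The stricter thresholds, FDR under 0.001 together with a log2FC beyond 2 in either direction, and the use of edgeR follow the study's methods.

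Members are given by role, and 1 of them, below the filter, and 1 list of markers are not reported here. Values in every library are given for members past the stricter thresholds and for the member with the highest mean CPM of each role, others as stated in the text. From each list of partner genes, up to 3 genes with the largest log2FC in each direction at an adjusted p below 0.05 are named. The members and lists were chosen with earlier results of these data known. Alternatives were DESeq2 1.42.0, other scaling, a likelihood ratio test, other filters, the replicate number as a block, and each library left out. Fits that keep the list of genes tested when a library is left out were chosen after seeing the data. On simulated data with 15222 genes, 98 of 100 genes changed by a log2FC of 1 and 99 of 100 changed by 3 were recovered, with 15 false calls. In the real libraries far more genes were called, 38.5% higher and 38.1% lower. Recovery and false calls with so large a share of genes changed was not tested. Promoter windows come from RefSeq on GRCh38.p14. Protein sequences, transcript levels and tumour data were not used here. Other steps used Python 3.11.15, pandas 2.3.3, numpy 2.4.6 and matplotlib 3.10.9.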

Additional observations from a re-analysis of the deposited data

Results flagged for a closer look

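In 7 of the 58 groups of 4 libraries examined, a single library lay apart from the other 3 by a gap that, as a share of the group's whole range, was above Dixon's critical value for 4 samples. Chance flags about 1 in 20 groups, or 2.9 of 58, and the member genes of a library are not independent of each other.

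Untreated replicate 3 was low for ITGA1, at 7.908 CPM against 10.22 to 10.62 CPM in the other untreated libraries, and for ITGA9, at 43.44 CPM against 50.56 to 50.78 CPM. Untreated replicate 2 was low for ITGA5, at 6.347 CPM against 7.866 to 8.08 CPM. DOX-treated replicate 2, the library with the fewest counts, was high for ITGB1, at 449.9 CPM against 426.1 to 429.2 CPM. The same library was low for LAMB2, at 234.8 CPM against 259.1 to 263.2 CPM, and for LAMC3, at 11.61 CPM against 14.33 to 14.84 CPM. Its LAMB1 share of the laminin beta chains per length was 27.73% against 26.12% to 26.39%.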

How the results depend on the processing

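The log2FC of the 22 members tested was computed again under 23 other settings, which gave 496 values. No called member reversed, and LAMB2, not called in either fit, went from -0.09 to 0.0357 when libraries were scaled by their total alone. Of the values, 485 kept their direction and their side of the threshold, and 10 values, those of ITGAE, ITGB5, LAMA5 and LAMB2, passed an adjusted p of 0.05 that the reported fit missed. The number of members higher at the stricter thresholds was 2 instead of 4 when 5 or more libraries had to exceed 1 CPM, and 2 to 4 with single libraries left out. It was 2 without any of the DOX-treated replicates 1, 2, 3 or 4, since ITGAX and ITGB3 then had too few libraries above 1 CPM to be tested, and 4 in each such fit that kept the list of genes tested. Without a filter on low counts, 20 members were higher at an adjusted p below 0.05 among 37 tested. DESeq2 gave 12 higher and 6 lower members. Whether the replicate numbers pair the libraries is not given in the sources used here. Same-numbered deviations had a mean correlation of 0.0913 (-0.176 to 0.241), and different-numbered ones ran from -0.290 to 0.346. So few pairs cannot settle the question. With the replicate block 12 members were higher, 6 lower and 4 past the stricter thresholds. Members under about 3 counts per library cannot be compared at this depth.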
